A study of Mus musculus with 9 samples.

Results

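The genes described here are 10 proteoglycans, glycoproteins and matricellular proteins of the extracellular matrix, namely Lum, Dcn, Bgn, Fmod, Vcan, Fn1, Fbn1, Sparc, Postn and Thbs1. They were taken by gene symbol from the 24008 genes of the count table, and all 10 were listed. Liver RNA was sequenced from mice with nonalcoholic steatohepatitis (NASH), with 3 libraries per group and 9 libraries in all. Every mouse was fed a diet rich in fat and carbohydrate. The labels call the first group WT, and the methods call it Flox, that is, mice that carry the floxed Irf4 allele without its deletion. F4MKO mice lack IRF4, a transcription factor, in skeletal muscle. F4MKO + FSTL1 mice carry the same deletion and overexpress FSTL1, a secreted glycoprotein, from an adeno-associated virus with a muscle creatine kinase promoter injected into the gastrocnemius. By the methods, Flox and F4MKO mice received a GFP virus instead, which the labels do not mention. The labels give neither the age nor the sex of these mice, and the methods differ on the length of the diet. The comparisons ask how liver RNA changed with the loss of muscle IRF4 and with muscle FSTL1 on top of that loss.

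The matrix around liver cells is built of collagen fibres and of the proteins that organise them. Small leucine-rich proteoglycans (Lum, Dcn, Bgn and Fmod) bind collagen and set the width and spacing of its fibrils, and decorin and biglycan also bind TGF-beta. Matricellular proteins (Sparc, Postn and Thbs1) are released into the matrix mainly during repair and scarring, where they tune the contact of cells with it, and thrombospondin 1 can activate latent TGF-beta. In liver, stellate cells, portal fibroblasts and the myofibroblasts that arise from them are the main makers of scar matrix, whereas fibronectin is also made by hepatocytes, which release it into the plasma.

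In the GRCm38 (mm10) annotation of GENCODE, all 10 are protein-coding genes on 7 chromosomes. Dcn (ENSMUSG00000019929.16) lies at chr10:97479609-97518143 and Lum (ENSMUSG00000036446.5) at chr10:97565128-97572703, both on the plus strand, 47.0 kb apart and with no other protein-coding gene between them. Fmod (ENSMUSG00000041559.7) lies at chr1:134037254-134048277 on the plus strand. The gene of another small leucine-rich proteoglycan, Prelp, lies 115.8 kb before it, with no protein-coding gene between them. Bgn (ENSMUSG00000031375.17) lies at chrX:73483602-73495933 on the plus strand. Vcan (ENSMUSG00000021614.16) lies at chr13:89655312-89742509, Fn1 (ENSMUSG00000026193.15) at chr1:71585520-71653200, Fbn1 (ENSMUSG00000027204.13) at chr2:125300594-125507993 and Sparc (ENSMUSG00000018593.13) at chr11:55394500-55423183, all on the minus strand. Postn (ENSMUSG00000027750.16) lies at chr3:54361109-54391037 and Thbs1 (ENSMUSG00000040152.8) at chr2:118111876-118127133, both on the plus strand. On the opposite strand, annotated genes cover 2442 exon bases of Fbn1 (Gm9913), 292 of Fn1 (Apol7d) and 208 of Thbs1 (Gm29233). Whether counting used the strand is not given in the sources used here, so reads of these stretches cannot be assigned to one gene with certainty.

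RefSeq (GRCm38.p6) gave promoter windows for 6 of the 10 genes. The 250 bases before the start of Bgn, Fmod and Postn (of its 2 windows, the one next to the start given above) hold no annotated exon and are shown because these genes fell together in F4MKO + FSTL1 livers. Each is written 5′ to 3′ on the plus strand, and capitals mark a GC box (GGGCGG, here as its complement CCGCCC) or a TATA box (TATAAA).
Bgn, chrX:73483351-73483600: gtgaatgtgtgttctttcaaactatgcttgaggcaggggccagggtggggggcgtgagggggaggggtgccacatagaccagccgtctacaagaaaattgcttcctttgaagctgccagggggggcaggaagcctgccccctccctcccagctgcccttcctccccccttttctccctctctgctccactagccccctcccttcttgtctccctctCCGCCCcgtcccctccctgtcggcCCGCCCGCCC
Fmod, chr1:134037004-134037253: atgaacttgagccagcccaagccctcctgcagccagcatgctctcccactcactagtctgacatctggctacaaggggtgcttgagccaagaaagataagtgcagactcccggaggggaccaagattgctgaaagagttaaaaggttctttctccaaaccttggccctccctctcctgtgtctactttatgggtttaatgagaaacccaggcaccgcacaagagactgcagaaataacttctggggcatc
Postn, chr3:54360857-54361106: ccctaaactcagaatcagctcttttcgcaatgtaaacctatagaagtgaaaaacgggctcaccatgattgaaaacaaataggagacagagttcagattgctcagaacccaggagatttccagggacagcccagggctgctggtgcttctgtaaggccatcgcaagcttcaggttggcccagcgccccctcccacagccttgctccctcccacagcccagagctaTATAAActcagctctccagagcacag
The Bgn window, with a GC content of 64.4%, held 3 GC boxes, the last 2 of which overlap in the run of CCGCCC repeats next to the start. The Postn window (52.0% GC) held 1 TATA box, which begins 26 bases before the end of the window. The Fmod window (51.2% GC) held no match to any of the 6 motifs searched on both strands, which were the TATA box, CCAAT, the GC box, TGANTCA (AP-1), CATTCC (TEAD) and the IRF element. Of 32851 windows of the same length, 12.4% held the TATA box, 33.8% CCAAT, 32.7% the GC box, 6.75% the AP-1 letters, 12.6% the TEAD letters and 2.98% the IRF element. The 3 sequences shown thus shared no searched motif. Of the windows not shown, those of Vcan and Fbn1 also held GC boxes, that of Vcan a CCAAT box and that of Fbn1 an IRF element. The Fbn1 window is annotated exon over all its 250 bases.

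Reads counted on genes ran from 20656976 to 24322984 per library. Levels are given as CPM, the reads of a gene relative to a library size scaled by the TMM method, or per kilobase of exon (RPKM) where genes are compared with each other. A gene was called when its adjusted p in edgeR's quasi-likelihood test was under 0.05 (Benjamini-Hochberg, over 14379 genes tested) and its fold change was above 1.5. The labels number the replicates as separate samples, without naming the mice, so the p-values measure the spread between these samples. The IRF4 deletion and the FSTL1 virus were placed in muscle, and liver RNA does not check either label. Irf4 in liver had 101 to 132 counts in Flox libraries, 120 to 130 in F4MKO libraries and 10, 92 and 116 in F4MKO + FSTL1 libraries. On the first principal component of all genes, F4MKO libraries lay between 28.7 and 49.0, Flox libraries between -5.47 and 5.46 and F4MKO + FSTL1 libraries between -47.4 and -29.4. F4MKO replicate 1 stood at the end of that axis, with the lowest sum of hepatocyte markers (75300 CPM, against 94900 to 114000 in the 8 others).

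Per length of exon, the order of the 10 genes was the same in all 3 groups, from Fn1 at the top to Vcan at the bottom. In Flox livers Fn1 stood at 67.8 ± 5.65 RPKM (SD, n = 3), Dcn at 43.8 ± 3.20, Bgn at 26.3 ± 1.51, Sparc at 19.4 ± 1.56 and Lum at 9.48 ± 1.62. These 5 genes did not overlap with their neighbours in the order. Postn followed at 1.35 ± 0.365 RPKM, Fmod at 0.474 ± 0.109, Thbs1 at 0.328 ± 0.0360 and Fbn1 at 0.285 ± 0.0365. Thbs1 overlapped with both Fmod and Fbn1, so the order of those 3 is not settled by these libraries. Vcan, the large hyaluronan-binding proteoglycan versican, was close to absent at 0.00882 ± 0.00463 RPKM. In F4MKO livers the ranges of Dcn and Bgn also overlapped, and in F4MKO + FSTL1 livers Fmod lay clear of Thbs1.

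**Figure D1:**
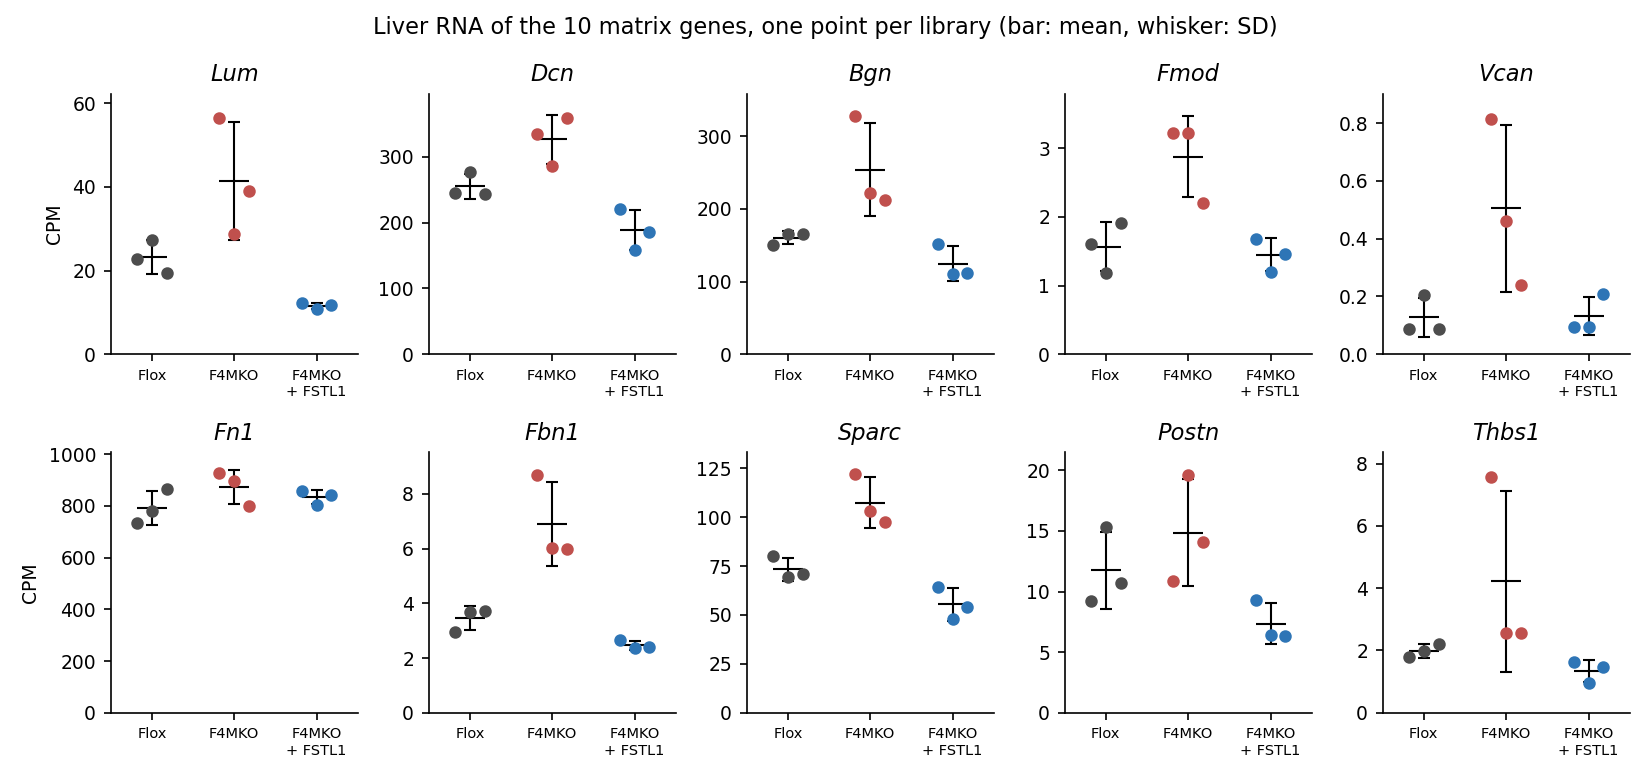
Level in CPM of each of the 10 genes in every liver library (points, 1 per library) with the mean and SD of the 3 libraries per group. For 9 genes, Vcan included, the F4MKO + FSTL1 points lie below every F4MKO point, whereas the groups of Fn1 overlap.

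The 4 small leucine-rich proteoglycans were highest in F4MKO livers and lowest in F4MKO + FSTL1 livers. Lum, which encodes lumican, stood at 22.8, 27.4 and 19.5 CPM in Flox replicates 1 to 3, at 56.5, 28.7 and 38.9 CPM in F4MKO and at 12.2, 10.7 and 11.8 CPM in F4MKO + FSTL1. All 3 groups were separate, and the F4MKO + FSTL1 libraries were close to each other (coefficient of variation 6.86%) whereas F4MKO libraries were spread (34.0%). Lum was 3.58-fold lower in F4MKO + FSTL1 than in F4MKO (log2 fold change -1.84, SE 0.22, edgeR adjusted p = 0.00107). Against Flox, the log2 differences were 0.83 in F4MKO (SE 0.21, edgeR adjusted p = 0.0959) and -1.01 in F4MKO + FSTL1 (SE 0.22, edgeR adjusted p = 0.0935), and neither was called.

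Dcn, which encodes decorin, stood at 245, 277 and 244 CPM in Flox, 334, 286 and 359 CPM in F4MKO and 220, 159 and 186 CPM in F4MKO + FSTL1. Its groups did not overlap either, and it was 1.73-fold lower in F4MKO + FSTL1 than in F4MKO (log2 fold change -0.79, SE 0.14, edgeR adjusted p = 0.00331). Bgn, which encodes biglycan, stood at 150, 166 and 165 CPM in Flox, 327, 222 and 212 CPM in F4MKO and 152, 110 and 112 CPM in F4MKO + FSTL1. Here the F4MKO libraries lay above both other groups, and 1 F4MKO + FSTL1 library lay within the Flox range. The fall of Bgn from F4MKO to F4MKO + FSTL1 was 2.04-fold (log2 fold change -1.03, SE 0.18, edgeR adjusted p = 0.0033). Fmod, which encodes fibromodulin, was much lower, at 1.60, 1.19 and 1.91 CPM in Flox, 3.22, 3.22 and 2.20 CPM in F4MKO and 1.68, 1.20 and 1.46 CPM in F4MKO + FSTL1. Flox and F4MKO + FSTL1 overlapped in full, and both lay below F4MKO. The Fmod fall of 1.98-fold (log2 fold change -0.99, SE 0.25, edgeR adjusted p = 0.0188) was no longer called without F4MKO replicate 1 (adjusted p = 0.0677), F4MKO replicate 2 (0.0556) or F4MKO + FSTL1 replicate 2 (0.0824).

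The balance between the adjacent genes Lum and Dcn also differed between groups, and a ratio within a library does not depend on how libraries are scaled. Per kilobase, the ratio of Lum to Dcn was 0.222, 0.236 and 0.190 in Flox, 0.403, 0.240 and 0.258 in F4MKO and 0.132, 0.160 and 0.151 in F4MKO + FSTL1. The groups did not overlap, although F4MKO replicate 2 exceeded the highest Flox library only slightly. The ratio of Bgn to Dcn ran from 0.573 to 0.648 in Flox, from 0.566 to 0.937 in F4MKO and from 0.577 to 0.662 in F4MKO + FSTL1, so that the groups overlapped. Prelp, the gene next to Fmod on chromosome 1, stood at 68.7 to 81.8 CPM in Flox, 86.9 to 115 CPM in F4MKO and 48.3 to 78.8 CPM in F4MKO + FSTL1 (log2 fold change of F4MKO + FSTL1 against F4MKO -0.70, SE 0.17, edgeR adjusted p = 0.0133). Optc, on the other side of Prelp, had at most 11 counts in any library.

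Vcan was too low to test. Its raw counts were 2, 5 and 2 in Flox, 23, 11 and 6 in F4MKO and 2, 2 and 4 in F4MKO + FSTL1, and it failed the filter on low counts. The 40 counts of the F4MKO group lay above those of both other groups in every library. Relative to depth, F4MKO held 3.99 times the Vcan reads of Flox (exact 95% binomial interval 1.91 to 9.36), and F4MKO + FSTL1 held 0.252 times those of F4MKO (0.102 to 0.545). These intervals cover counting error only, not the spread between libraries. Without the filter, its edgeR adjusted p was 0.0936 for F4MKO against Flox and 0.036 for F4MKO + FSTL1 against F4MKO, and DESeq2 gave 0.201 and 0.0899.

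Of the structural glycoproteins, fibronectin and fibrillin 1 behaved differently. Fn1 stood at 733, 779 and 863 CPM in Flox, 927, 895 and 800 CPM in F4MKO and 857, 802 and 842 CPM in F4MKO + FSTL1. All groups overlapped, and Fn1 was the only tested gene of the 9 that was not called lower in F4MKO + FSTL1 than in F4MKO (log2 fold change -0.07, 95% interval -0.31 to 0.18, edgeR adjusted p = 0.7). The interval leaves room for a change of either sign, but not for one as large as the smallest of the 8 others, whose upper bounds reached -0.43 at most. The sign of the small Fn1 difference turned to 0.17 once a trend with transcript length and GC content was removed. Because Fn1 made up most of the reads of the 10 genes, their sum followed the 8 others only in part, with 1250 to 1380 CPM in Flox, 1530 to 1800 CPM in F4MKO and 1140 to 1320 CPM in F4MKO + FSTL1. The F4MKO libraries lay above both other groups, which overlapped. Without Fn1 the sum was 513 to 562, 671 to 870 and 338 to 464 CPM, and all 3 groups were separate.

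Fbn1, which encodes fibrillin 1, the backbone of microfibrils that hold latent TGF-beta in the matrix, stood at 2.94, 3.69 and 3.73 CPM in Flox, 8.67, 6.03 and 5.99 CPM in F4MKO and 2.66, 2.36 and 2.40 CPM in F4MKO + FSTL1. Its 3 groups were separate, and it was 2.79-fold lower in F4MKO + FSTL1 than in F4MKO (log2 fold change -1.48, SE 0.20, edgeR adjusted p = 0.0014). Against Flox, F4MKO livers stood higher (log2 fold change 1, SE 0.19), the lowest adjusted p of the 9 genes in that comparison (edgeR, 0.0583), which came to 0.0489 without F4MKO replicate 3. The antisense overlap with Gm9913 limits how firmly these reads can be assigned to Fbn1.

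The 3 matricellular genes fell as well. Sparc, which encodes osteonectin, a collagen-binding protein, stood at 80.2, 69.2 and 70.9 CPM in Flox, 122, 103 and 97.4 CPM in F4MKO and 64.1, 47.8 and 54.2 CPM in F4MKO + FSTL1. Its groups did not overlap, and the fall from F4MKO to F4MKO + FSTL1 was 1.94-fold (log2 fold change -0.95, SE 0.13, edgeR adjusted p = 0.0014). Postn, which encodes periostin, a ligand of integrins, stood at 9.23, 15.3 and 10.7 CPM in Flox, 10.9, 19.6 and 14.1 CPM in F4MKO and 9.30, 6.39 and 6.32 CPM in F4MKO + FSTL1. Flox and F4MKO overlapped widely, and 1 F4MKO + FSTL1 library lay just within the Flox range. The Postn fall of 2.02-fold (log2 fold change -1.01, SE 0.25, edgeR adjusted p = 0.0158) was not called without F4MKO replicate 2 (adjusted p = 0.0565) or without F4MKO + FSTL1 replicate 2 (0.0703) or 3 (0.0509).

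Thbs1 rested most on a single library. It stood at 1.78, 1.97 and 2.22 CPM in Flox, 7.57, 2.55 and 2.55 CPM in F4MKO and 1.64, 0.961 and 1.46 CPM in F4MKO + FSTL1. F4MKO replicate 1 was far above the others of its group, which had a coefficient of variation of 68.5%. The log2 fold change of F4MKO + FSTL1 against F4MKO was -1.65 (SE 0.42, edgeR adjusted p = 0.0181) with that library and -0.92 without it, still called, whereas the call was lost without F4MKO + FSTL1 replicate 2 (adjusted p = 0.0805). For F4MKO against Flox the value went from 1.09 to 0.36 without F4MKO replicate 1.

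**Figure D2:**
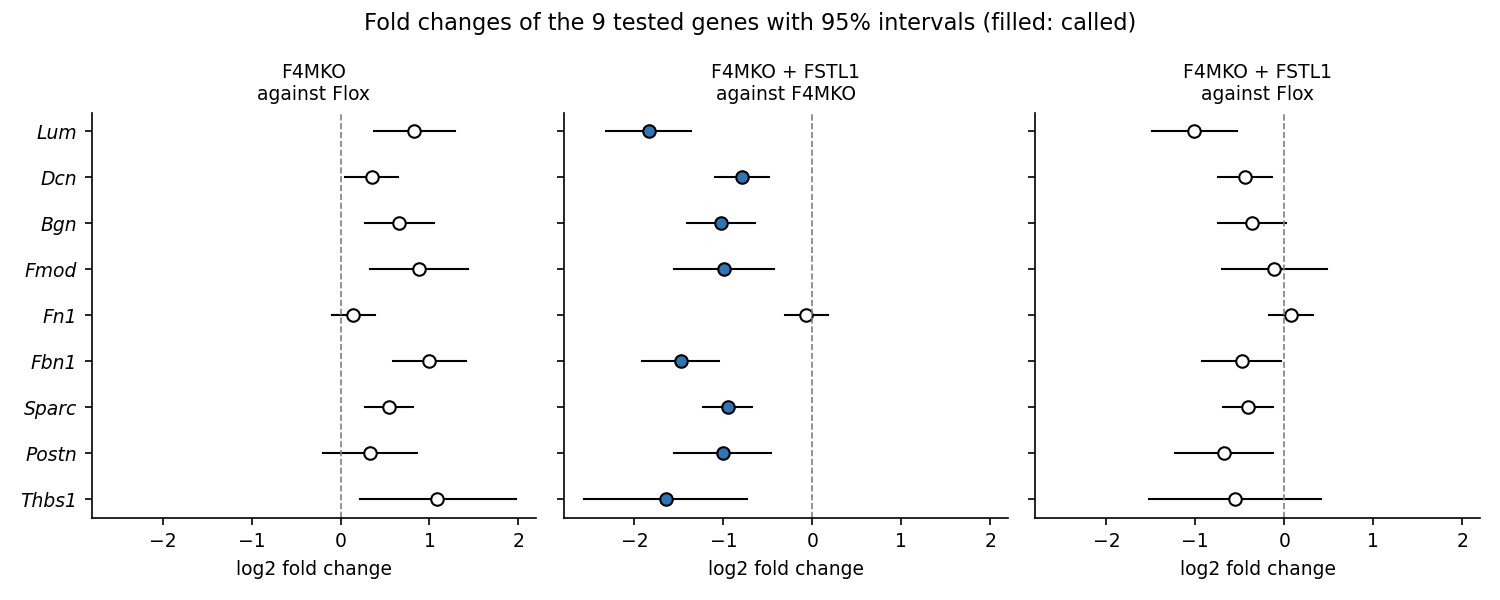
Log2 fold changes (points) with 95% intervals (lines) of the 9 tested genes in the 3 comparisons, with filled points for called genes. In the middle panel 8 genes are filled and lie left of 0, from Lum at -1.84 to Dcn at -0.79, and in the outer panels no point is filled.

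Set against all genes tested, the 9 testable genes gave the following counts. In F4MKO + FSTL1 against F4MKO, 8 of 9 were called lower, against 11.2% of all genes, and the same 8 did not overlap between the groups, against 21.1% of all genes. Their median log2 fold change, Fn1 included, was -1.01, against 0.01 for all genes. The count was 5 without F4MKO + FSTL1 replicate 2, 6 without F4MKO replicate 2 and 7 without F4MKO replicate 1. Over all genes, the 2070 called in either direction became 1295, 1925 and 1335 in the same order. Lum, Dcn, Bgn, Fbn1 and Sparc were called with each of the 9 libraries left out in turn. Against a null of a 1.5-fold change, edgeR called only Lum, Fbn1 and Sparc, against 4.31% of all genes.

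In F4MKO against Flox, edgeR called 0 of the 9 genes, as against 0.271% of all genes. At an unadjusted p under 0.05 there were 7, against 16.9% of all genes, and 7 had no overlap between the groups with F4MKO higher, against 11.7%. The median log2 fold change of the 9 was 0.66, against 0 for all genes. DESeq2 called 3 of them higher in F4MKO, Lum (adjusted p = 0.0112), Bgn (0.0169) and Fbn1 (0.00181), against 2.23% of the genes to which it gave an adjusted p. Without the filter on low counts, edgeR called the same 3, against 1.99% of all genes listed. The calls in this comparison thus depended on the tool, the filter and, for Fbn1, a single library, whereas the 9 estimates were positive with both tools.

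In F4MKO + FSTL1 against Flox, edgeR again called 0 of the 9 genes, against 0.00695% of all genes, which is a single gene. At an unadjusted p under 0.05 there were 5 (Lum, Dcn, Fbn1, Sparc and Postn), against 13.4% of all genes, each with a lower estimate in F4MKO + FSTL1. The groups did not overlap for 5 (Lum, Dcn, Fbn1, Sparc and Thbs1), against 10.7%. DESeq2 called 1, Lum (log2 fold change -1, adjusted p = 0.00199), against 2% of the genes to which it gave an adjusted p. For Fmod and Bgn the intervals of the log2 difference, -0.70 to 0.48 and -0.75 to 0.02, included 0. The 3 comparisons share their groups pairwise, so they are not independent of each other.

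**Figure D3:**
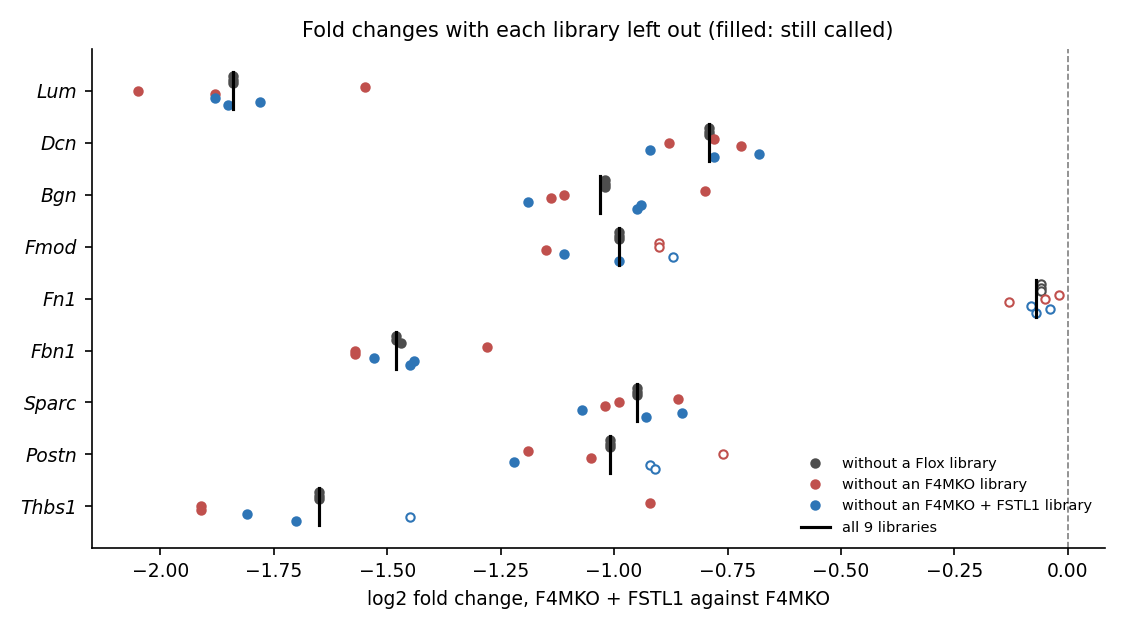
Log2 fold change of F4MKO + FSTL1 against F4MKO for the 9 tested genes with each library left out in turn (points, coloured by the group of the library left out, filled where the gene was still called) and with all 9 libraries (black bars). Lum, Dcn, Bgn, Fbn1 and Sparc are filled throughout, and Thbs1 moves furthest, to -0.92 without F4MKO replicate 1.

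Related matrix genes were compared in the same fit. Of 74 other proteoglycans, matricellular and microfibril or elastic fibre genes, 70 were listed and 51 could be tested. In F4MKO + FSTL1 against F4MKO, 26 of the 51 were called lower and 1 higher, with a median log2 fold change of -0.64. Over all genes tested, 11.2% were called lower and 3.21% higher, with a median of 0.01. The 51 related genes were called lower more often than that as a whole. They were not spread evenly. Of the other matricellular genes 10 of 14 were called lower, and of the microfibril and elastic fibre genes 13 of 17. Of the other small leucine-rich proteoglycans 1 of 7 (Prelp) was called lower, and of the other proteoglycans 2 of 13 (Gpc6 and Sdc3), with 1 higher. The shares called lower in both proteoglycan groups were close to that of all genes. The count of 27 called genes fell to 16 without F4MKO replicate 1. In F4MKO against Flox, 1 of the 51 was called, higher in F4MKO, and in F4MKO + FSTL1 against Flox 0 were called by edgeR and 1 by DESeq2. Over all genes, edgeR called 0.271% and 0.00695% in these comparisons, and DESeq2 called 2% in the second.

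The matricellular gene Spp1, which encodes osteopontin, was the one called in F4MKO against Flox. It stood at 59.4, 78.2 and 42.2 CPM in Flox, 397, 143 and 203 CPM in F4MKO and 45.6, 29.8 and 43.7 CPM in F4MKO + FSTL1. Every F4MKO library lay above every other library. The log2 fold change was 2.05 against Flox (SE 0.34, edgeR adjusted p = 0.0404), a call lost without any one of 7 of the 9 libraries (adjusted p from 0.0502 to 0.145), and -2.64 for F4MKO + FSTL1 against F4MKO (SE 0.35, edgeR adjusted p = 0.0014). Wisp2, a CCN family member, had 7, 11 and 5 counts in Flox, 33, 6 and 14 in F4MKO and 4, 2 and 3 in F4MKO + FSTL1. Its fitted log2 fold change of -2.16 (SE 0.62, edgeR adjusted p = 0.031) rested on these few reads and was not called without F4MKO replicate 1 (-1.44, adjusted p = 0.142) or without any of the F4MKO + FSTL1 libraries.

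Of the 5 called related genes that fell most, 3 were microfibril or elastic fibre genes. Eln, which encodes elastin, stood at 6.46, 5.08 and 4.08 CPM in Flox, 24.9, 15.7 and 9.62 CPM in F4MKO and 2.99, 2.79 and 3.97 CPM in F4MKO + FSTL1 (log2 fold change of F4MKO + FSTL1 against F4MKO -2.37, SE 0.32, edgeR adjusted p = 0.00144). Ltbp2, which binds microfibrils, stood at 1.87, 1.88 and 2 CPM in Flox, 7.39, 3.89 and 3.51 CPM in F4MKO and 1.31, 1.54 and 1.62 CPM in F4MKO + FSTL1 (-1.73, SE 0.29, edgeR adjusted p = 0.00286). All groups of both genes were separate. Fbn2, the relative of Fbn1, had 6, 10 and 0 counts in Flox, 39, 12 and 14 in F4MKO and 1, 2 and 2 in F4MKO + FSTL1. Relative to depth, F4MKO + FSTL1 held 0.0968 times the Fbn2 reads of F4MKO (exact 95% binomial interval 0.0304 to 0.238, counting error only). Its edgeR adjusted p of 0.0177 rose to 0.0766 without F4MKO replicate 1, and the call was also lost without F4MKO + FSTL1 replicate 1 or 2.

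The gene that was called higher was Gpc1, which encodes the cell-surface heparan sulfate proteoglycan glypican 1. It stood at 37.0, 26.2 and 27.2 CPM in Flox, 18, 28.7 and 18 CPM in F4MKO and 61.1, 40.3 and 31.5 CPM in F4MKO + FSTL1 (log2 fold change of F4MKO + FSTL1 against F4MKO 1.04, SE 0.25, edgeR adjusted p = 0.0139). F4MKO + FSTL1 libraries lay above F4MKO libraries and overlapped with Flox. Without F4MKO replicate 1 it was not called (adjusted p = 0.0639).

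**Figure D4:**
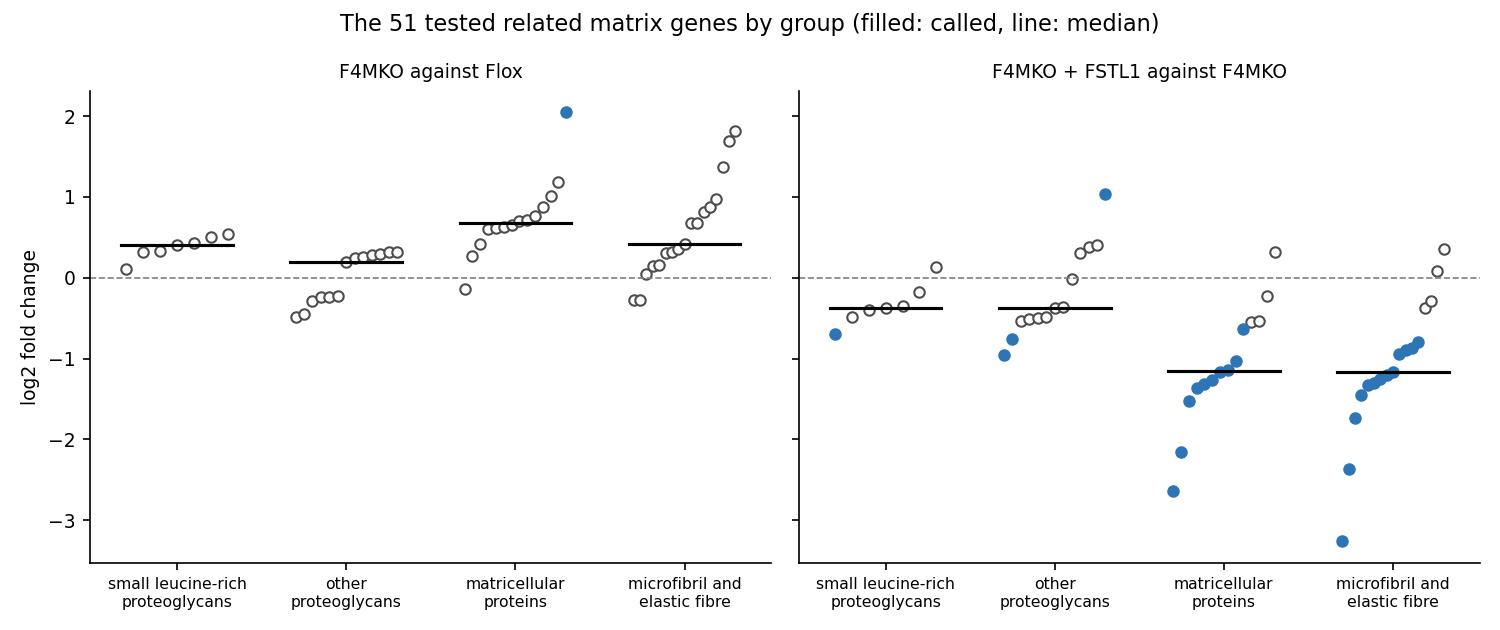
Log2 fold changes of the 51 tested related matrix genes in 4 groups for F4MKO against Flox (left) and F4MKO + FSTL1 against F4MKO (right), with filled points for called genes and a line at each group's median. On the right the medians of the matricellular and of the microfibril and elastic fibre genes lie at -1.15 and -1.17, and those of both proteoglycan groups at -0.37.

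Receptors and partners of these proteins moved in part. Of 18 such genes, all of which could be tested, 9 were called lower in F4MKO + FSTL1 against F4MKO, against 11.2% of all genes, and 0 higher. In either comparison with Flox, edgeR called 0 of these 18. DESeq2 called 3 of them (Cd36, Ddr1 and Tgfb3) in F4MKO against Flox, against 2.23% of the genes to which it gave an adjusted p. In F4MKO + FSTL1 against Flox it called 0 of them. Ddr1, a receptor tyrosine kinase for collagen, stood at 2.99, 3.40 and 2.35 CPM in Flox, 12.2, 6.24 and 6.23 CPM in F4MKO and 2.10, 1.39 and 1.51 CPM in F4MKO + FSTL1 (log2 fold change of F4MKO + FSTL1 against F4MKO -2.30, SE 0.30, edgeR adjusted p = 0.0014). Against Flox, Ddr1 stood 1.50 higher in F4MKO on the log2 scale (SE 0.28, edgeR adjusted p = 0.0583), which edgeR called without the filter on low counts (adjusted p = 0.00048) and without F4MKO replicate 3 (0.0434). Tgfb2, the TGF-beta 2 ligand, had a log2 fold change of -1.84 against F4MKO in F4MKO + FSTL1 (SE 0.42, edgeR adjusted p = 0.011), lost without F4MKO + FSTL1 replicate 2 (adjusted p = 0.0541). Itga8, an integrin subunit, had one of -1.31 (SE 0.24, edgeR adjusted p = 0.00411). The other 6 called lower were Cd36, Cd44, Ddr2, Tgfb3, Tlr2 and Tlr4. Fstl1 itself, a matricellular gene and the one overexpressed in muscle, had 138, 186 and 147 counts in Flox liver, 456, 234 and 284 in F4MKO liver and 114, 67 and 83 in F4MKO + FSTL1 liver. In liver it was thus lowest in the group that received the FSTL1 virus in muscle (log2 fold change against F4MKO -1.53, SE 0.22, edgeR adjusted p = 0.00171).

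In whole liver, fewer cells of a type and less RNA per cell cannot be told apart, and markers of several cell types moved with the 10 genes. The marker counts below stand against 11.2% of all genes called lower and 3.21% called higher in F4MKO + FSTL1 than in F4MKO. Of 10 stellate cell markers, 3 were called lower in F4MKO + FSTL1 than in F4MKO, 9 of the 10 had a lower estimate there, and their sum ran from 323 to 338 CPM in Flox, 333 to 360 CPM in F4MKO and 251 to 335 CPM in F4MKO + FSTL1. Without Ecm1, the marker with a higher estimate (log2 fold change 0.14, edgeR adjusted p = 0.579), the F4MKO + FSTL1 sums of 139 to 178 CPM lay below those of F4MKO, at 205 to 245 CPM, and of Flox, at 187 to 207 CPM. Myofibroblast and fibroblast markers were called lower in 7 of 9 tested, with sums of 98.4 to 125, 186 to 306 and 57.4 to 83.1 CPM in the same order. Their lists lead with Lrat (18.5 ± 2.53, 21.9 ± 2.45 and 12.6 ± 2.01 CPM, SD, n = 3) and Des (8.70 ± 1.12, 9.25 ± 1.30 and 7.08 ± 0.591 CPM) for stellate cells. For myofibroblasts they lead with Acta2 (4.25 ± 0.851, 6.14 ± 1.57 and 3.80 ± 1.95 CPM) and Tagln, which had at most 3 counts in any library. The sum of the fibroblast markers thus separated the groups as Lum, Dcn, Fbn1, Sparc and Thbs1 did, and its part in the result was not tested.

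Of the other cell types, macrophages and cholangiocytes had most of their markers called lower in F4MKO + FSTL1 than in F4MKO. Macrophage markers were called lower in 7 of 10, with sums of 567 to 932 CPM in Flox, 736 to 843 CPM in F4MKO and 344 to 526 CPM in F4MKO + FSTL1, and Adgre1 and Csf1r stood at 13.1 ± 1.97 and 53.8 ± 7.87 CPM in F4MKO + FSTL1, against 25.4 ± 0.259 and 92.0 ± 3.09 CPM in F4MKO (SD, n = 3). Cholangiocyte markers were called lower in 6 of 8 tested, with sums of 59.7 to 78.1, 80.4 to 140 and 42.9 to 54.1 CPM in the 3 groups, and Krt19 and Krt7 stood at 1.32 ± 0.135 and 0.890 ± 0.173 CPM in F4MKO + FSTL1, against 4.83 ± 1.36 and 3.39 ± 1.83 CPM in F4MKO. Of 5 mesothelial markers 1 was called lower (sums of 10.7 to 15.3, 8.35 to 11.2 and 5.12 to 8.78 CPM, led by Msln and Upk3b). Of 10 endothelial markers, led by Pecam1 and Cdh5, 0 were called, and their sums overlapped at 332 to 410, 277 to 342 and 300 to 363 CPM. Of 7 tested lymphocyte markers, led by Cd3e and Cd3g, 0 were called (8.36 to 9.90, 6.87 to 10.8 and 3.74 to 10.3 CPM), nor were any of 5 tested platelet and red cell markers (150 to 240, 236 to 254 and 215 to 484 CPM), whose first genes, Pf4 and Ppbp, were near 0. Of 9 hepatocyte markers, led by Alb and Ttr, 2 were called higher in F4MKO + FSTL1 than in F4MKO, and their sums of 75300 to 114000 CPM were by far the highest of the 9 lists. The part of these cell types in the results was not tested.

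Levels were also set against the marker sums of each library, and the outcome depended on the sum. Only the 10 genes were set on these scales, so no share of all genes stands beside their separations. The values are a description of these genes only. On the sum of all 10 stellate cell markers, Lum was at 6.01 to 8.10% in Flox, 8.49 to 17.0% in F4MKO and 3.64 to 4.70% in F4MKO + FSTL1, with no overlap. On this scale Dcn, Bgn, Fmod, Fbn1, Sparc, Postn and Thbs1 also lay lower in every F4MKO + FSTL1 library than in any F4MKO library, whereas Vcan and Fn1 overlapped. Ecm1, however, made up 26.4 to 46.9% of this sum and was the only one of the 10 markers without a lower estimate in F4MKO + FSTL1 than in F4MKO. On the sum without Ecm1, a scale chosen after seeing the data, Lum (14 to 23% in F4MKO, 6.86 to 8.35% in F4MKO + FSTL1) and Fbn1 (2.54 to 3.54% and 1.50 to 1.70%) were still separate. Sparc (41.3 to 50.2% and 34.4 to 38.3%), Dcn (136 to 152% and 114 to 132%), Bgn (89.9 to 133% and 78.8 to 85.5%) and Thbs1 (1.08 to 3.09% and 0.691 to 1.03%) were separate by small gaps. Fmod, Vcan and Postn overlapped, and Fn1 was higher in F4MKO + FSTL1 (339 to 437% and 482 to 596%).

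On the sum of myofibroblast and fibroblast markers, also set up after seeing the data, none of the 10 genes was lower in F4MKO + FSTL1 than in F4MKO. Lum overlapped at 13.9 to 20.9% in F4MKO and 14.7 to 19.1% in F4MKO + FSTL1, as did Vcan, Fbn1 and Thbs1. The other 6 were higher in F4MKO + FSTL1 on this scale, among them Dcn (109 to 193% and 265 to 301%), Bgn (107 to 114% and 181 to 191%) and Sparc (39.8 to 52.3% and 77.1 to 87.6%). The markers in this sum include the collagen genes Col1a1, Col1a2 and Col3a1 and the collagen cross-linking enzyme Lox, each of which was itself called lower in F4MKO + FSTL1 than in F4MKO. Col1a1, Col1a2 and Col3a1 made up most of the sum. Their means were 39.8, 57 and 98.5 CPM in F4MKO, where the sum averaged 233 CPM. In F4MKO + FSTL1 they were 8.34, 18.4 and 24.9 CPM, with a mean sum of 67.4 CPM. This scale is thus largely one of collagen RNA. A gene that fell less than the sum itself comes out higher on this scale by construction, as Fn1 did (303 to 435% and 1030 to 1400%). The ratios therefore cannot set the 10 genes apart from other liver genes. Acta2 was not called (edgeR adjusted p = 0.145).

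**Figure D5:**
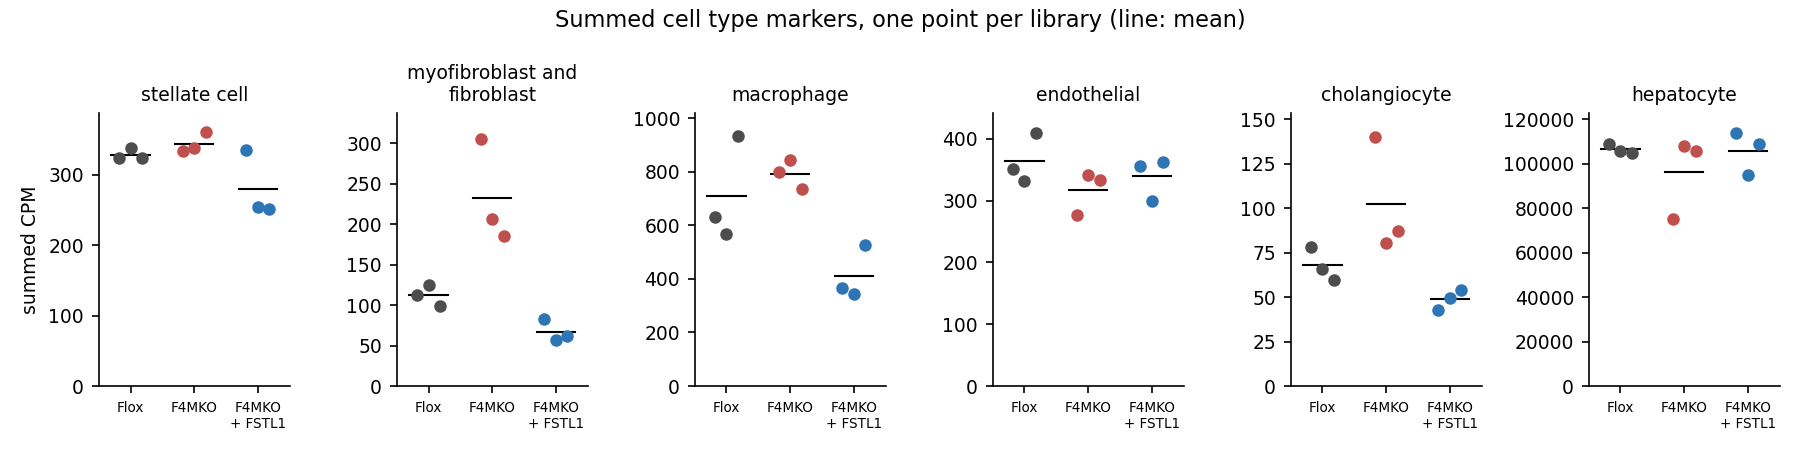
Summed CPM of 6 lists of cell type markers in every library (points, 1 per library) with the group mean (line), each panel on its own scale from 0. Myofibroblast, macrophage and cholangiocyte sums of F4MKO + FSTL1 livers lie below every F4MKO library, and endothelial sums overlap.

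The genes whose log2 CPM followed each of the 9 tested genes most closely over the 9 libraries are given as a description, since all points share the 3 groups and any gene that follows the groups scores high. Lum was most like Dpt, which encodes the matrix protein dermatopontin (Pearson r = 0.992), followed by Fkbp10 (0.991) and B4galt2 (0.990). Dcn was most like Pamr1 (0.982), Fam180a (0.980) and Pam (0.978), and Bgn most like Flna (0.992), Ppp1r9b (0.989) and Itgax (0.988). Fmod was most like Plxdc2 (0.965), Ccdc141 (0.958) and Gm15446 (0.954). Fbn1 was most like Sfxn3 (0.990), Wdr35 (0.984) and the matricellular gene Thbs2 (0.983). Sparc was most like Chst11 (0.984), Ppp1r9b (0.982) and the collagen gene Col1a2 (0.982), and Postn most like the fibril-associated collagen gene Col14a1 (0.960), Rnf145 (0.955) and Tmem139 (0.949). Thbs1 was most like Plxna3 (0.980), Plekha2 (0.977) and Tmem173 (0.971). Fn1 had the lowest top value, with Zyx (0.928), Tmem246 (0.921) and Plxna4os1 (0.915). None of the 10 genes was among the first 3 of another.

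Across libraries, F4MKO replicate 1 was the highest of the 9 for 7 of the 10 genes, and F4MKO + FSTL1 replicate 2 was the lowest for 6. These libraries also stood at the ends of the first principal component of all genes (49.0 and -47.4). The ranks were not set against those of all genes, so they cannot be read as a trait of these 10. Within F4MKO + FSTL1, replicate 1 was the highest library for 9 of the 10 genes, and it was also the highest of its group in the sum of stellate cell markers (335 CPM, against 254 and 251). Postn and Dcn did not follow F4MKO replicate 1, with their highest levels in F4MKO replicates 2 and 3.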

How the data were processed

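Total RNA of liver was sequenced as 150 bp paired reads on a BGIseq500. Per the labels and the methods, the authors trimmed reads with Trim Galore 0.6.7, aligned them to mm10 with HISAT2 2.2.1 and counted them on genes with featureCounts 2.0.1. The authors deposited raw counts, without normalization or filter. The annotation, the strand setting and the treatment of multi-mapping reads are not given in the sources used here.

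The analysis used edgeR 4.0.16 under R 4.3.3. Genes passed filterByExpr (minimum count 10, minimum total 15), library sizes were scaled by TMM (factors 0.927 to 1.17), and group means were fitted to all 9 libraries together by quasi-likelihood (common biological coefficient of variation 0.15). A gene was called at an adjusted p under 0.05 (Benjamini-Hochberg over 14379 genes) and a fold change above 1.5, the thresholds of the methods, which used DESeq2. Log2 CPM used a prior count of 2, RPKM the union of GENCODE vM21 exons, and genes were matched by symbol. Precision is limited by 3 libraries per group. Vcan, Fbn2 and Wisp2 ratios use exact conditional binomial intervals.

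The 10 genes and the lists were chosen with earlier results of these data known. Genes were named by rule: the 10 genes, of the 74 related matrix genes in each comparison the 5 called that rose most and the 5 that fell most, up to 3 called receptors or partners, the first 2 markers of each list, Irf4, Fstl1 and the 3 genes most like each of the 10. Prelp, Optc, Gpc6, Sdc3 and the 6 further receptors or partners were named after their values were seen. Alternatives were DESeq2 1.42.0, its size factors in edgeR, no filter, only the 6 libraries compared, the replicate number as a block, removal of a length and GC trend (13387 genes, 93.1% of those tested, had both), no fold threshold, a test against a 1.5-fold change, and each library left out in turn. Levels relative to the stellate marker sum without Ecm1 and to the fibroblast marker sum were added after seeing the data.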

Additional observations from a re-analysis of the deposited data

How the results depend on the processing

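For F4MKO + FSTL1 against F4MKO, the 8 calls among the 10 genes became 3 in a test against a 1.5-fold change and 5 to 9 with a library left out (9 where Vcan passed the filter and was called). For F4MKO against Flox, the count of 0 became 3 with DESeq2 and 3 without the filter on low counts, and was 0 to 1 with a library left out. For F4MKO + FSTL1 against Flox, 0 became 1 with DESeq2 and 1 without the filter. Of the related matrix genes, the 27 calls in F4MKO + FSTL1 against F4MKO became 9 against a 1.5-fold change and 16 to 28 with a library left out. The single call in F4MKO against Flox became 7 with DESeq2, 9 without the filter and 0 with only the 6 libraries compared. It became 2 with the replicate block, 2 with the length and GC trend removed and 2 with that trend removed and the block. It became 0 against a 1.5-fold change and 0 to 3 with a library left out. For F4MKO + FSTL1 against Flox, 0 became 1 with DESeq2 and 1 without the filter. Over all genes, the 39 calls in F4MKO against Flox became 11 with only the 6 libraries compared and 134 with the replicate block. They became 46 with the length and GC trend removed and 121 with that trend removed and the block. Against a 1.5-fold change they became 0, and with a library left out 0 to 100. The cause of these shifts was not tested, except that a stricter null lowers the count by construction.

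Signs turned for Fn1 and Fmod, whose estimates were near 0. Removal of the length and GC trend took Fn1 from 0.14 to -0.01 in F4MKO against Flox and from -0.07 to 0.17 in F4MKO + FSTL1 against F4MKO, with the same values under the replicate block. Fmod in F4MKO + FSTL1 against Flox ran from -0.28 to 0.06 with a library left out. The numbers of all called genes moved more than those of the 10, from 39 to 338 with DESeq2 and to 478 without the filter in F4MKO against Flox, and from 1 to 284 and 379 in F4MKO + FSTL1 against Flox. In F4MKO + FSTL1 against F4MKO, the 2070 genes called became 620 against a 1.5-fold change and 1295 to 2216 with a library left out.

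Replicate numbers named no shared animal. To compare them, the mean log2 CPM of its group was subtracted from each gene, and libraries were correlated on what remained. These correlations of same-numbered libraries were 0.042 to 0.169 between F4MKO and Flox and 0.092 to 0.304 between F4MKO + FSTL1 and F4MKO. Between F4MKO + FSTL1 and Flox they were -0.099 to 0.206. Each F4MKO library correlated best with the Flox library of its own number, and each F4MKO + FSTL1 library with the F4MKO library of its own number. With the replicate block, Ddr1 was called in F4MKO against Flox (adjusted p = 0.0295, and 0.0337 with the length and GC trend removed as well), and the calls among the 10 genes were 0, 8 and 0 in the 3 comparisons, as without it. Depth limits Vcan, Fbn2 and Wisp2, which had few reads in every library.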
